A study of Mus musculus with 2 samples.

Results

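Mitotic-rich cells of 2 single-cell RNA libraries of mouse embryonic stem cells were compared after Idoxuridine and after DMSO. They were chosen by their own RNA: a cell was kept where the share of its transcripts that came from 8 mitotic genes (Ccnb1, Cdc20, Cenpf, Plk1, Aurka, Ube2c, Cenpe and Hmmr) lay at or above the 75th percentile of DMSO cells, which was 0.311%. Transcripts were counted as unique molecular identifiers (UMIs), tags that remove PCR copies, and cells under 23500 UMIs were left out. This kept 427 of the 1553 deposited cells, 236 from the Idoxuridine library and 191 from the DMSO library. They were set beside 661 mitotic-poor cells, those below the DMSO median share of 0.198%, of which 279 came from the Idoxuridine library and 382 from the DMSO library.

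The cells were E14, a male embryonic stem cell line, grown without feeder cells on gelatin in 2i/LIF medium, in which 2 kinase inhibitors and the cytokine LIF hold them in the naive state. One library was made from cells exposed for 24 h to Idoxuridine, a nucleoside that resembles thymidine and enters DNA during replication, and the other from cells exposed to the solvent DMSO. The strain label names another mouse strain than the one from which E14 is known to derive, so the strain is uncertain, and it is not used below. The treatment label gives 10 µM and a protocol field gives a dose 1000 times higher, so the dose is uncertain. The study used the drug as an enhancer of gene expression noise, the differences between cells that share a condition. There was 1 library per treatment. Every difference below is therefore a difference between these 2 libraries with no replicate check and no test, and intervals in parentheses are 95% intervals that cover counting error only.

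Cells that approach division build up the transcripts of a common set of genes. Cyclin B with the kinase Cdk1 starts mitosis, Plk1 and the Aurora kinases build the spindle and correct its attachments, and kinesins and kinetochore proteins such as Cenpe and Cenpf tie chromosomes to microtubules. Cdc20 and Ube2c then help the anaphase-promoting complex (APC/C) to destroy cyclin B and end mitosis. In many of these genes the promoter holds CCAAT boxes, which bind the factor NF-Y, and a cell cycle homology region of the type TTTGAA, which is known from human cells to bind the MuvB-containing complexes (with p130 as DREAM in resting cells, with Mybl2 and Foxm1 in dividing ones).

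The promoters of the 3 genes that mark the class (Ccnb1, Cdc20 and Plk1) and of the 2 genes of the share with the highest ratios between the libraries (Cenpf and Cenpe) are printed to show which of these motifs each holds. The sequences are those of RefSeq on GRCm38.p6, 250 bases before to 50 bases after the gene start, 5′ to 3′ on the strand of the gene, with CCAAT and TTTGAA on either strand (ATTGG and TTCAAA on the other) in capitals.
Ccnb1 promoter (chr13:100786437-100786736, minus strand): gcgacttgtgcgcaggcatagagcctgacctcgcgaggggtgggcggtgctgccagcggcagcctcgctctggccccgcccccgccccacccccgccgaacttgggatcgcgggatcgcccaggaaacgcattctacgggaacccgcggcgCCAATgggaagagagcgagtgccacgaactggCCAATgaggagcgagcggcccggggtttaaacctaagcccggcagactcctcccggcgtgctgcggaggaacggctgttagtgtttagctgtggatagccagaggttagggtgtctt
Cdc20 promoter (chr4:118437294-118437593, minus strand): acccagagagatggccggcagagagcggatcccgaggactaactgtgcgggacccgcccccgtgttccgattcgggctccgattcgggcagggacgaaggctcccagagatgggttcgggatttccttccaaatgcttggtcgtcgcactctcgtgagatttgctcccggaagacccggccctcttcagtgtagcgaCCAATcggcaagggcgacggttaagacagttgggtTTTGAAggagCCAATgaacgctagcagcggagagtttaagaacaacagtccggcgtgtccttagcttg
Plk1 promoter (chr7:122159185-122159484, plus strand): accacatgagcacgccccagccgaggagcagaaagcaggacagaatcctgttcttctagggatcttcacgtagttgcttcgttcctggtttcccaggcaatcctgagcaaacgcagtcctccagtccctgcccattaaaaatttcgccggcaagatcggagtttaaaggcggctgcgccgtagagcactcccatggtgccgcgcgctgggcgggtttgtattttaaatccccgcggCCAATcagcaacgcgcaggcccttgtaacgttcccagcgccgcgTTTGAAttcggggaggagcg
Cenpf promoter (chr1:189688037-189688336, minus strand): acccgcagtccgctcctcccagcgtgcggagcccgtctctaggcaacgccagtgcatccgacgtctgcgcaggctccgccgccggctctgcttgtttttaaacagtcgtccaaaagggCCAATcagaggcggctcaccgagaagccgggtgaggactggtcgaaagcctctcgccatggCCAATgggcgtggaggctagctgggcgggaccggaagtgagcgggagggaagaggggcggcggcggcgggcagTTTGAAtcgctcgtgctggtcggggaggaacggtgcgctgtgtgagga
Cenpe promoter (chr3:135212313-135212612, plus strand): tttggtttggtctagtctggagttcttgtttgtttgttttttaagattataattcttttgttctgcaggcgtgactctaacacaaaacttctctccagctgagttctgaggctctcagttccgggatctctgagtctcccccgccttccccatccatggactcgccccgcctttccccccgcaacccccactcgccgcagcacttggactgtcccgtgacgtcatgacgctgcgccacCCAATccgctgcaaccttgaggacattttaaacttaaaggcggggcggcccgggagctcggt
All 8 genes of the share had a match in this table and held at least 1 CCAAT, with 6 in Ube2c and 5 in Hmmr. A TTTGAA was found in 6 of the 8, and Ccnb1 and Cenpe had none in this window. Of 32851 promoters of the same length, 37.4% held CCAAT, 17.9% held TTTGAA and 6.95% held both. These matches describe letters in the window and are not evidence of binding.

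More Idoxuridine cells passed the cut. They were 236 of 648 cells over the depth minimum, or 36.4% (exact Clopper-Pearson interval 32.7 to 40.3%), where the cut sets the DMSO share at 191 of 764, or 25%. With each library cut at its own percentiles the share is 25% by construction. Mitotic-poor cells made up 43.1% of Idoxuridine cells (39.2 to 47.0%) and, again by construction, 50% of DMSO cells. Among mitotic-rich cells the share ran between 0.311 and 0.691%, with a median of 0.423%, in Idoxuridine and between 0.311 and 0.654%, with a median of 0.388%, in DMSO. The cut fell in a continuous distribution. The cells nearest to it were at 0.3112% inside and 0.3100% outside in Idoxuridine and at 0.3111% inside and 0.3109% outside in DMSO, and 45 Idoxuridine cells and 69 DMSO cells lay within 0.02 of it, in percent of UMIs.

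**Figure D1:**
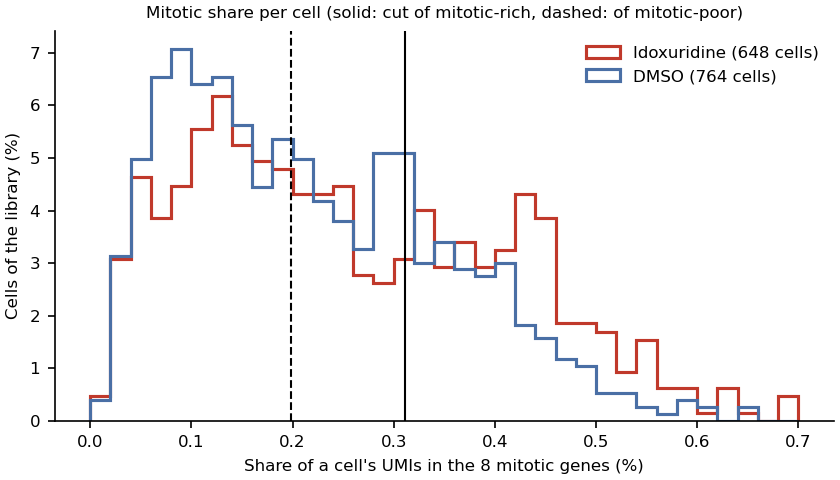
Share of each cell's UMIs in the 8 mitotic genes (x axis, %) against the percentage of cells of the library (y axis), for 648 Idoxuridine cells and 764 DMSO cells, with the cuts of the mitotic-rich class (solid, 0.311%) and the mitotic-poor class (dashed, 0.198%). Both distributions are broad and continuous across the cuts, and a larger percentage of Idoxuridine cells lies between 0.4 and 0.6%.

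The mitotic-rich class held 11582550 UMIs in Idoxuridine and 10400257 in DMSO, with a median per cell of 46835 UMIs (23747 to 106316) in Idoxuridine and 50637 UMIs (26598 to 121749) in DMSO. In mitotic-poor cells the medians were 35597 UMIs in Idoxuridine and 41514.5 UMIs in DMSO. The mitochondrial share was close between the libraries in mitotic-rich cells, with medians of 2.77% in Idoxuridine and 2.53% in DMSO. The nuclear-retained RNA Malat1 took a median of 0.409% of UMIs in Idoxuridine cells and 0.287% in DMSO cells of this class, and in mitotic-poor cells 0.325% in Idoxuridine and 0.181% in DMSO. Its part in the results below was not tested. The 2 libraries shared 2 cell barcodes, of which 1 was mitotic-rich in either library. Both libraries expressed the defining stem cell genes, with Pou5f1, which encodes Oct4, at 1566 CPM (UMIs scaled per class and library to a common total, counts per 10 to the power 6) in Idoxuridine and 2032 CPM in DMSO mitotic-rich cells. Of the fibroblast markers, Postn had 0 UMIs in both libraries of this class, and Col1a1, Col3a1, Lum and Dcn had 13, 5, 44 and 9 UMIs in Idoxuridine, with 0 UMIs of each in DMSO. The fibroblast markers Col1a2 and Thy1 are not given here, so these values cover only part of the set.

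The class name held on genes that the share does not use. The 48 other genes of the G2/M list distributed with Seurat summed to 12382 CPM in Idoxuridine and 12849 CPM in DMSO mitotic-rich cells, against 7338 CPM in Idoxuridine and 7678 CPM in DMSO mitotic-poor cells. Per cell this sum ran between 9275 and 19290 CPM, with a median of 12260 CPM, in Idoxuridine and between 9960 and 18662 CPM, with a median of 12856 CPM, in DMSO. S phase genes went the other way between classes, with 6186 CPM in Idoxuridine and 6415 CPM in DMSO mitotic-rich cells, and 7589 CPM in Idoxuridine and 7774 CPM in DMSO mitotic-poor ones. Both class sums were lower in Idoxuridine by less than the range over cells.

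Among the 8 genes of the share, 6 stood within 0.13 log2 of each other between the libraries, and Cenpf and Cenpe were higher in Idoxuridine. Cenpf, a large protein of the nuclear matrix and outer kinetochore, stood at 558 CPM (545 to 572) in Idoxuridine and 355 CPM (344 to 367) in DMSO mitotic-rich cells, a log2 ratio of 0.65 (0.59 to 0.71). It was higher in mitotic-poor cells as well, at 150 CPM in Idoxuridine and 89.9 CPM in DMSO, a log2 ratio of 0.74. Per cell the Cenpf level ran between 93.6 and 1827 CPM, with a median of 535 CPM, in Idoxuridine and between 0 and 1057 CPM, with a median of 341 CPM, in DMSO, so that the 2 ranges overlap. Cenpe, the kinesin that carries chromosomes to the spindle equator, stood at 401 CPM (389 to 412) in Idoxuridine and 304 CPM (294 to 315) in DMSO, a log2 ratio of 0.40 (0.33 to 0.46). In mitotic-poor cells Cenpe differed little, at 105 CPM in Idoxuridine and 99.6 CPM in DMSO (log2 ratio 0.07), which puts its ratio in mitotic-rich cells 0.33 higher (0.20 to 0.45).

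Ccnb1, which encodes cyclin B1, stood at 827 CPM (810 to 843) in Idoxuridine and 845 CPM (827 to 862) in DMSO mitotic-rich cells. Ube2c, the ubiquitin-conjugating enzyme of the APC/C, stood at 918 CPM in Idoxuridine and 935 CPM in DMSO, and Cdc20, its activator, at 806 CPM in Idoxuridine and 737 CPM in DMSO (log2 ratio 0.13). Plk1 stood at 294 CPM in Idoxuridine and 285 CPM in DMSO, Aurka at 288 CPM in Idoxuridine and 312 CPM in DMSO, and Hmmr, a spindle assembly protein, at 160 CPM in Idoxuridine and 171 CPM in DMSO. These values chose the cells and are given as a description only. Cenpf lies at chr1:189640606-189688086, Cenpe at chr3:135212537-135273611 and Ccnb1 at chr13:100778650-100786570 on GRCm38, and Cenpf, Cdc20, Plk1 and Ube2c overlap a gene on the other strand, which makes their counts less certain.

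Across all genes, the comparison was counted by size over the 8081 genes with at least 200 UMIs in each class, both libraries together. A gene near silent in 1 library can therefore pass this minimum through the other library alone. In mitotic-rich cells 1086 genes (13.4%) exceeded a ratio of 0.5 log2 in favour of Idoxuridine (called higher) and 457 (5.66%) passed -0.5 (called lower), around a median log2 ratio of 0.03. In mitotic-poor cells 1021 genes (12.6%) lay higher and 311 (3.85%) lower, around a median of 0.05. The split depends on the scaling. Higher genes were 70.4% of those counted in mitotic-rich cells, and 39.6% with TMM scaling (674 higher, 1026 lower) or 39.7% with median-of-ratios scaling (675 higher, 1024 lower), since TMM moved the median ratio by -0.17. In mitotic-poor cells the same share was 76.7%, and 40.4% and 41.6% with these scalings, with a shift of -0.18 for TMM. Ratios below are relative to total UMIs, so one between 0 and 0.17 would turn negative with TMM. One a little above -0.5 would likewise pass -0.5, so the counts of higher and lower genes in the lists below hold for this scaling only.

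Genes of the mitotic machinery differed little between the libraries in mitotic-rich cells, against the background of 13.4% higher and 5.66% lower. Cells of both libraries were chosen at the same cut of the mitotic share. Genes that rise with that share are held alike in part by this choice, so all genes are an uneven yardstick for them. The values of these lists are a description only. None of 17 measured cyclins, CDK1 partners and entry kinases reached 0.5 log2 with scaling to total UMIs (median -0.06, -0.12 in mitotic-poor cells). Cdk1 stood at 629 CPM in Idoxuridine and 670 CPM in DMSO, Ccna2, which encodes cyclin A2, at 314 CPM in Idoxuridine and 367 CPM in DMSO, and Wee1, the kinase that holds CDK1 inactive, had the lowest ratio of this list at -0.43. With TMM, which moves ratios in this class by -0.17, Wee1 would pass -0.5. Of 26 spindle checkpoint and APC/C genes, 1 lay higher (the checkpoint platform Mad1l1, 0.53) and 1 lower (the APC/C subunit Cdc26, -0.51), with a median of -0.06. Of 36 kinetochore and centromere genes none lay higher and 1 lower (Cenpo, -0.68), with a median of -0.05. This list leaves out the kinetochore genes Cenpf and Cenpe, which had higher ratios and are given above with the genes of the share. No gene of these 3 lists differed by 0.5 log2 or more between its ratio in mitotic-rich and in mitotic-poor cells.

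The list of the chromosomal passenger complex, which corrects faulty attachments and later guides cell cleavage, and of centromere cohesion had the lowest median among those of the mitotic machinery, at -0.14 in both classes over 10 measured genes. All 10 had ratios below 0 in mitotic-rich cells, between -0.53 and -0.03, and Rcc2 was the 1 past 0.5. Aurkb, the kinase of the passenger complex, stood at 123 CPM (117 to 130) in Idoxuridine and 167 CPM (159 to 175) in DMSO, a log2 ratio of -0.44, and was also lower in mitotic-poor cells (-0.36). Incenp, its scaffold, stood at 184 CPM (176 to 192) in Idoxuridine and 232 CPM (223 to 241) in DMSO, a log2 ratio of -0.34. In mitotic-poor cells Incenp stood at 97.4 CPM in Idoxuridine and 93.5 CPM in DMSO, so its ratio in mitotic-rich cells was 0.40 lower (rich minus poor -0.40, -0.53 to -0.26). Birc5, which encodes survivin, and Cdca8, which encodes borealin, had ratios of -0.12 and -0.04.

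Of 36 kinesin and spindle assembly genes, 1 lay higher and 1 lower in mitotic-rich cells (median -0.05), beside 13.4% and 5.66% of all genes. Kpna2, an importin that holds spindle factors until mitosis, stood at 507 CPM (494 to 520) in Idoxuridine and 337 CPM (326 to 348) in DMSO, a log2 ratio of 0.59 (0.68 in mitotic-poor cells). Stmn1, which destabilises microtubules, stood at 501 CPM (488 to 514) in Idoxuridine and 793 CPM (776 to 810) in DMSO, a log2 ratio of -0.66 (-0.61 in mitotic-poor cells). In mitotic-poor cells 5 of the 36 lay higher and 1 lower, beside 12.6% and 3.85% of all genes. Kifc5b had a ratio of 0.80 there, Kifc1 of 0.63 and Kif18b of 0.54, where mitotic-rich cells had 0.48, 0.33 and 0.21. No gene of this list differed by 0.5 log2 or more between its ratios in the 2 classes. Kifc1 and Kifc5b are near-identical copies, and their counts are uncertain. Tpx2 (-0.08), Kif11 (-0.06) and Nusap1 (0.10) had ratios close to 0.

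Condensin, cohesin and chromosome structure genes had a median of 0.12 over 23 genes (0.06 in mitotic-poor cells), with none past 0.5, beside 13.4% higher and 5.66% lower of all genes. Top2a, the topoisomerase that untangles sister chromatids, stood at 662 CPM in Idoxuridine and 683 CPM in DMSO, and Mki67 at 165 CPM in Idoxuridine and 147 CPM in DMSO. Centrosome genes had a median of 0.09 over 15 genes. Among them Nin, which anchors microtubules at the centriole, stood at 19.3 CPM (16.8 to 22.0) in Idoxuridine and 5.00 CPM (3.73 to 6.56) in DMSO, a log2 ratio of 1.95, with 1.75 in mitotic-poor cells. Cytokinesis genes had a median of 0.05 over 17 genes, with Cep55, a protein of the midbody, lower at -0.52. Of 15 nuclear envelope genes 1 lay higher and none lower, a smaller part than the 13.4% and 5.66% of all genes. This was Lemd2, an inner nuclear membrane protein, at 15.0 CPM (12.9 to 17.4) in Idoxuridine and 8.27 CPM (6.61 to 10.2) in DMSO, a log2 ratio of 0.86. Its ratio was 0.08 in mitotic-poor cells (rich minus poor 0.78, 0.28 to 1.28).

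**Figure D2:**
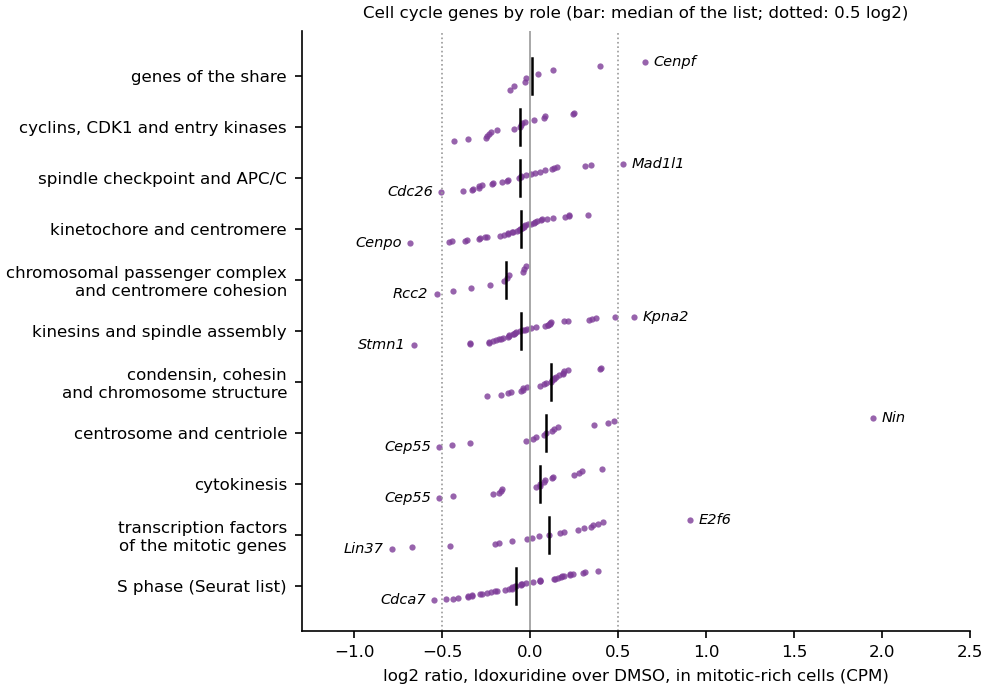
Log2 ratio of CPM, Idoxuridine over DMSO, in mitotic-rich cells (x axis) for the measured genes of each role (rows), with 1 point per gene, a bar at the median of the list and dotted lines at 0.5 log2. List medians lie between -0.14 and 0.12, and Nin at 1.95, E2f6 at 0.91 and Cenpf at 0.65 stand at the right, Lin37 at -0.79 and Cenpo at -0.68 at the left (Lemd2, in the nuclear envelope list, is not drawn).

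Transcription factors of the mitotic genes had a median of 0.11 over 19 genes, with 1 higher and 2 lower beside 13.4% and 5.66% of all genes. In mitotic-poor cells the median was 0.18, with 1 higher and 1 lower beside 12.6% and 3.85%. Mybl2, a partner of MuvB in dividing cells, stood at 292 CPM in Idoxuridine and 402 CPM in DMSO mitotic-rich cells, a log2 ratio of -0.46 (-0.53 to -0.39), with -0.30 in mitotic-poor cells. Foxm1, the factor that drives late mitotic genes, stood at 38.2 CPM in Idoxuridine and 38.1 CPM in DMSO. Lin37, a subunit of MuvB, had a ratio of -0.79, and Rbl1, the pocket protein p107, one of -0.67, against -0.16 in mitotic-poor cells. E2f6, a repressor of G1/S genes, stood at 26.9 CPM in Idoxuridine and 14.3 CPM in DMSO (0.91), with 0.53 in mitotic-poor cells. The 3 NF-Y subunits Nfya, Nfyb and Nfyc had ratios of 0.36, 0.31 and 0.19.

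Of 38 G2 checkpoint and DNA damage signalling genes, 6 lay higher and 1 lower, beside 13.4% and 5.66% of all genes, with a median of 0.08. In mitotic-poor cells 5 lay higher and 2 lower, beside 12.6% and 3.85%, with a median of 0.09. The highest ratio was that of Gadd45g (4.74, with 3.17 in mitotic-poor cells), which rests on few DMSO UMIs. Rad50, a subunit of the complex that senses broken ends, stood at 82.5 CPM (77.4 to 87.9) in Idoxuridine and 47.2 CPM (43.1 to 51.6) in DMSO mitotic-rich cells, a log2 ratio of 0.81. In mitotic-poor cells Rad50 stood at 74.1 CPM in Idoxuridine and 59.0 CPM in DMSO (0.33), which puts the ratio in mitotic-rich cells 0.48 higher (0.27 to 0.68). Its complex partners Nbn (-0.37) and Mre11a (-0.27) did not share this direction. The checkpoint kinases Chek1 (-0.03), Atr (-0.07), Atm (0.26) and Chek2 (-0.27) all lay within 0.5 log2.

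Of 38 measured p53 targets, 14 lay higher and 3 lower in mitotic-rich cells (median 0.28), beside 13.4% higher and 5.66% lower of all genes, and the others lay within 0.5 log2. In mitotic-poor cells 17 lay higher and 1 lower (median 0.42), beside 12.6% and 3.85%. Ddit4, an inhibitor of mTORC1, stood at 92.2 CPM in Idoxuridine and 22.1 CPM in DMSO mitotic-rich cells (2.06, with 1.84 in mitotic-poor cells), and the death genes Perp and Pmaip1 had ratios of 2.06 and 1.53 (1.84 and 1.34 in mitotic-poor cells). Mdm2, whose product marks p53 for degradation, stood at 134 CPM (127 to 141) in Idoxuridine and 83.7 CPM (78.2 to 89.4) in DMSO, a log2 ratio of 0.68, against 0.90 in mitotic-poor cells (rich minus poor -0.23, -0.38 to -0.08). Cdkn1a, which encodes p21, a brake on CDKs, stood at 219 CPM in Idoxuridine and 183 CPM in DMSO mitotic-rich cells (0.26), and at 257 CPM in Idoxuridine and 220 CPM in DMSO mitotic-poor cells (0.23). The 3 lower targets were Tigar (-1.10, with -0.93 in mitotic-poor cells), Cd80 (-0.83, with 0.05) and Trp53, the p53 gene itself (-0.55, with -0.41).

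Of 14 general pluripotency genes, 7 lay lower and 1 higher in mitotic-rich cells (median -0.50), beside 5.66% lower and 13.4% higher of all genes, and the others lay within 0.5 log2. In mitotic-poor cells 6 lay lower and 2 higher (median -0.37), beside 3.85% and 12.6%. Per cell the summed level of this list had a median of 3421 CPM (1482 to 5944) in Idoxuridine and 4970 CPM (2996 to 6551) in DMSO mitotic-rich cells, so that the ranges overlap. Sox2 stood at 172 CPM (165 to 180) in Idoxuridine and 315 CPM (304 to 326) in DMSO, a log2 ratio of -0.87 (-0.79 in mitotic-poor cells). Gdf3, a growth factor of the TGF-beta family, had a ratio of -1.06 and the RNA-binding protein gene L1td1 one of -0.75.

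Naive pluripotency genes had a median of -0.49 in mitotic-rich cells, with 9 of 20 lower and 3 higher beside 5.66% and 13.4% of all genes, and of -0.35 in mitotic-poor cells, with 7 lower and 3 higher beside 3.85% and 12.6%. Tcl1, a co-activator of Akt, stood at 63.6 CPM (59.1 to 68.4) in Idoxuridine and 187 CPM (179 to 196) in DMSO mitotic-rich cells, a log2 ratio of -1.56 (-1.93 in mitotic-poor cells). Spp1, which encodes osteopontin, had a ratio of -1.12 (-1.43 in mitotic-poor cells). Fgf4 (-1.01), Tfcp2l1 (-0.84) and Klf2 (-0.82) were lower too. Of the 3 higher genes, Dppa3 had a ratio of 5.50, Fgfbp1 of 1.63 and Sox15 of 0.57.

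Set beside mitotic-poor cells, the response of most genes was of a like size. The difference between the 2 ratios (mitotic-rich minus mitotic-poor) had a median of -0.01, and 6573 of 8081 genes (81.3%) lay within 0.25 log2. It was at least 0.5 log2 higher for 154 genes (1.91%) and at least 0.5 log2 lower for 111 (1.37%), of which 140 and 106 had a counting interval that left out 0. Both ratios come from the same 2 libraries, so a difference between the libraries that touches all cells enters both.

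**Figure D3:**
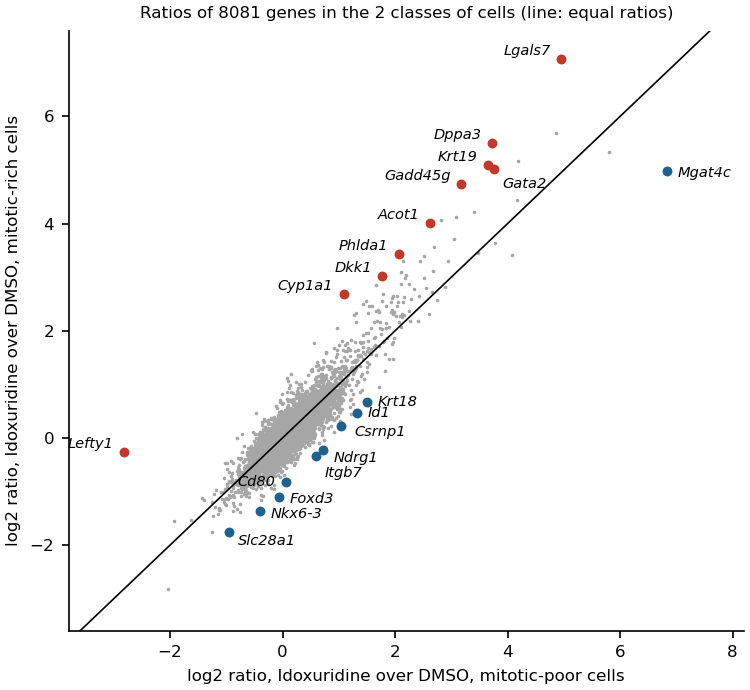
Log2 ratio of CPM, Idoxuridine over DMSO, in mitotic-rich cells (y axis) against that in mitotic-poor cells (x axis) for 8081 genes, with the 10 highest (red) and 10 lowest (blue) differences named and a line where both are equal. Lefty1 stands alone at the left, with -0.26 in mitotic-rich and -2.83 in mitotic-poor cells.

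The highest difference was that of Lefty1, a secreted inhibitor of Nodal signalling. It stood at 12.7 CPM (10.7 to 14.9) in Idoxuridine and 15.2 CPM (12.9 to 17.8) in DMSO mitotic-rich cells, a log2 ratio of -0.26, and at 5.33 CPM (4.06 to 6.87) in Idoxuridine and 37.8 CPM (35.0 to 40.7) in DMSO mitotic-poor cells, a log2 ratio of -2.83. The difference was 2.57 (2.06 to 3.07). A few cells carried the mitotic-rich level: 1 cell held 34.7% of its 147 UMIs in Idoxuridine and 1 cell held 39.9% of its 158 UMIs in DMSO. With the highest cell of each set left out the difference was 2.86, and with no depth minimum it was 0.89. At a fixed depth of 23500 UMIs Lefty1 was seen in 8.98% of Idoxuridine and 11.8% of DMSO mitotic-rich cells, and in 7.26% of Idoxuridine and 21.8% of DMSO mitotic-poor cells. Its neighbour and close relative Lefty2 was lower in both classes, with 8.29 CPM in Idoxuridine and 58.7 CPM in DMSO mitotic-rich cells (-2.83), and 22.3 CPM in Idoxuridine and 92.0 CPM in DMSO mitotic-poor cells (-2.04). Lefty1 lies at chr1:180935022-180938400 and Lefty2 at chr1:180893108-180899103, and reads that fit both could be split between them.

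The other 9 of the 10 highest differences were genes at low levels in DMSO and higher in Idoxuridine cells of both classes, with lower DMSO levels in mitotic-rich than in mitotic-poor cells. Dppa3, a factor of the early embryo that shields DNA methylation, stood at 109 CPM (103 to 115) in Idoxuridine and 2.40 CPM (1.56 to 3.55) in DMSO mitotic-rich cells, a log2 ratio of 5.50 (4.93 to 6.13). In mitotic-poor cells it stood at 87.9 CPM in Idoxuridine and 6.68 CPM in DMSO, a log2 ratio of 3.72, and the difference was 1.78 (1.15 to 2.41). In the cells between the 2 classes Dppa3 stood at 109 CPM in Idoxuridine and 3.25 CPM in DMSO, and the difference against those cells was 0.43. At the fixed depth Dppa3 was seen in 65.6% of Idoxuridine and 4.34% of DMSO mitotic-rich cells, and in 50.5% of Idoxuridine and 9.48% of DMSO mitotic-poor cells.

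Acot1, an acyl-CoA thioesterase, stood at 77.5 CPM (72.5 to 82.8) in Idoxuridine and 4.81 CPM (3.57 to 6.34) in DMSO mitotic-rich cells, and at 37.7 CPM in Idoxuridine and 6.13 CPM in DMSO mitotic-poor cells (difference 1.39, 0.88 to 1.90). Acot1 was seen in 61.4% of Idoxuridine mitotic-rich cells and 37.1% of Idoxuridine mitotic-poor cells at the fixed depth, and its level between the classes was 54.2 CPM in Idoxuridine and 7.50 CPM in DMSO. It has a close relative in Acot2, and its counts are less certain for that. Phlda1, a p53 target, behaved alike, with 66.1 CPM (61.5 to 71.0) in Idoxuridine and 6.15 CPM (4.74 to 7.86) in DMSO mitotic-rich cells, and 37.8 CPM in Idoxuridine and 9.01 CPM in DMSO mitotic-poor cells (difference 1.36, 0.91 to 1.81, and 0.52 against the cells between the classes). Dkk1, a secreted inhibitor of Wnt signalling, stood at 27.4 CPM in Idoxuridine and 3.37 CPM in DMSO mitotic-rich cells, and at 12.5 CPM in Idoxuridine and 3.64 CPM in DMSO mitotic-poor cells (difference 1.25).

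Cyp1a1, a cytochrome P450 induced through the aryl hydrocarbon receptor, stood at 33.2 CPM (30.0 to 36.7) in Idoxuridine and 5.19 CPM in DMSO mitotic-rich cells, a log2 ratio of 2.68. In mitotic-poor cells Cyp1a1 stood at 28.9 CPM in Idoxuridine and 13.6 CPM in DMSO, a log2 ratio of 1.08 (difference 1.59, 1.12 to 2.07). At the fixed depth it was seen in 25.8% of Idoxuridine and 8.88% of DMSO mitotic-rich cells, and in 21.1% of Idoxuridine and 19.2% of DMSO mitotic-poor cells, so the classes differed mainly in DMSO. Against the cells between the classes, where Cyp1a1 stood at 26.3 CPM in Idoxuridine and 5.24 CPM in DMSO, the difference was 0.35.

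The remaining 4 rested on few DMSO UMIs in mitotic-rich cells. The galectin gene Lgals7 had 599 UMIs in Idoxuridine and 4 in DMSO (log2 ratio 7.07, 5.71 to 8.95), the highest ratio of all genes counted in this class. The damage-response gene Gadd45g had 357 in Idoxuridine and 12 in DMSO (4.74), with 7 of the 12 in 1 cell, and without the highest cell of each set its difference was 2.68 in place of 1.57. The keratin gene Krt19 had 418 in Idoxuridine and 11 in DMSO (5.09), with 5 of the 11 in 1 cell, and its difference of 1.44 turned to -1.06 when set against the cells between the classes. The transcription factor gene Gata2 had 289 in Idoxuridine and 8 in DMSO (5.02).

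**Figure D4:**
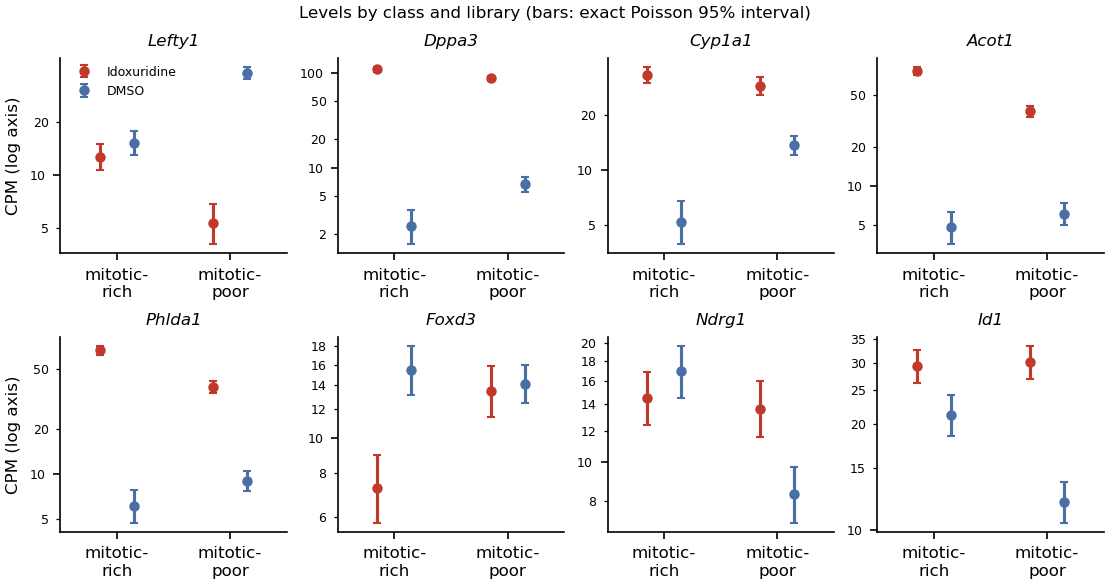
Level in CPM (y axes, log scale) in mitotic-rich and mitotic-poor cells of the Idoxuridine library (red) and the DMSO library (blue) for 8 genes whose ratio differed between the classes, with exact Poisson 95% intervals as bars. Acot1 and Phlda1 differ between the classes mainly in Idoxuridine, Cyp1a1, Ndrg1 and Id1 mainly in DMSO.

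Among the 10 lowest differences were those of Foxd3, Ndrg1 and Id1. Foxd3, a forkhead factor that keeps stem cells pluripotent, stood at 7.25 CPM (5.78 to 8.98) in Idoxuridine and 15.5 CPM (13.2 to 18.1) in DMSO mitotic-rich cells, a log2 ratio of -1.09. In mitotic-poor cells Foxd3 stood at 13.5 CPM in Idoxuridine and 14.2 CPM in DMSO (-0.06), and the difference was -1.03 (-1.51 to -0.55). Set against the cells between the classes, with 8.40 CPM in Idoxuridine and 18.2 CPM in DMSO, the difference was 0.020. Ndrg1, a stress-response gene, stood at 14.5 CPM in Idoxuridine and 16.9 CPM in DMSO mitotic-rich cells (-0.22), and at 13.6 CPM in Idoxuridine and 8.31 CPM in DMSO mitotic-poor cells (0.72). That difference, -0.94, was 0.069 against the cells between the classes. Id1, an inhibitor of differentiation that BMP signalling induces, stood at 29.3 CPM (26.2 to 32.6) in Idoxuridine and 21.2 CPM (18.5 to 24.2) in DMSO mitotic-rich cells (0.46), and at 30.1 CPM in Idoxuridine and 12.0 CPM in DMSO mitotic-poor cells (1.33), a difference of -0.86 (-1.21 to -0.52).

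The other 7 were Mgat4c, Nkx6-3, Itgb7, Cd80, Krt18, Csrnp1 and Slc28a1. Mgat4c, a glycosyltransferase gene, had 212 UMIs in Idoxuridine and 6 in DMSO mitotic-rich cells, and its difference of -1.85 had an interval that nearly reached 0 (-3.69 to -0.01). Nkx6-3, a homeobox gene, was lower in mitotic-rich cells (-1.37) more than in mitotic-poor ones (-0.40). Slc28a1, which encodes a transporter that takes pyrimidine nucleosides into the cell, stood at 4.58 CPM in Idoxuridine and 15.5 CPM in DMSO mitotic-rich cells (-1.76), and at 5.87 CPM in Idoxuridine and 11.3 CPM in DMSO mitotic-poor cells (-0.94). Csrnp1 and Mgat4c overlap other genes on the same strand, which makes their counts less certain.

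Over all genes counted, some of those named above included, the ratio in mitotic-rich cells was led by genes that were near silent in DMSO. Such genes passed the count minimum through their Idoxuridine UMIs, so their place at the top follows in part from that minimum. After Lgals7 came Phlda2, an imprinted brake on placental growth, with 65.0 CPM (60.5 to 69.8) in Idoxuridine and 1.25 CPM (0.666 to 2.14) in DMSO, a log2 ratio of 5.70, then Dppa3, Ldoc1 (5.33), the adhesion molecule gene Ceacam10 (5.17), Krt19, Gata2 and Mgat4c (4.99). Phlda2 was seen in 48.6% of Idoxuridine and 2.53% of DMSO mitotic-rich cells at the fixed depth. The lowest ratios were those of Lefty2 (-2.83), Slc28a1 (-1.76), Ly6g6e (-1.75), Tcl1 (-1.56), Kit, a receptor tyrosine kinase gene (-1.52), the quinone reductase gene Nqo2 (-1.47), the zinc transporter gene Slc39a3 (-1.41) and the predicted gene Gm14820 (-1.37). Kit was seen in 23.1% of Idoxuridine and 52.8% of DMSO mitotic-rich cells.

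Markers of other lineages were mixed in mitotic-rich cells. Beside 13.4% higher and 5.66% lower of all genes, 4 of 7 measured trophectoderm genes and 2 of 4 measured primitive endoderm genes lay higher with none lower, and 2 of 3 measured fibroblast genes lay lower with none higher. In mitotic-poor cells 5 of the 7 trophectoderm genes lay higher and none lower, beside 12.6% and 3.85% of all genes. Their median ratio was 0.96 there and 0.67 in mitotic-rich cells. Between the classes, 2 of the 7 had a ratio at least 0.5 log2 higher in mitotic-rich cells and 2 at least 0.5 log2 lower. Cdx2, the factor that specifies trophectoderm, stood at 42.6 CPM (38.9 to 46.5) in Idoxuridine and 10.3 CPM (8.43 to 12.4) in DMSO mitotic-rich cells (2.05). In mitotic-poor cells Cdx2 stood at 23.9 CPM in Idoxuridine and 12.3 CPM in DMSO (0.96), a difference of 1.08 (0.69 to 1.48). The summed trophectoderm list had a median of 321 CPM (64.1 to 948) per cell in Idoxuridine and 226 CPM (35.7 to 550) in DMSO mitotic-rich cells. Of its defining genes, Eomes had 79 UMIs in Idoxuridine and 74 in DMSO, and Elf5 had 6 in Idoxuridine and 2 in DMSO. Serpinh1, a collagen chaperone listed under primitive endoderm, stood at 111 CPM (105 to 118) in Idoxuridine and 17.2 CPM (14.8 to 19.9) in DMSO (2.69, with 1.79 in mitotic-poor cells), while Gata4 of that list had 14 UMIs in Idoxuridine and 11 in DMSO, and Gata6 22 in Idoxuridine and 1 in DMSO. The summed primitive endoderm list had medians of 552 CPM (126 to 1391) in Idoxuridine and 453 CPM (171 to 972) in DMSO. The summed fibroblast list had medians of 559 CPM (64.2 to 1951) in Idoxuridine and 818 CPM (210 to 1693) in DMSO. Its lower genes were Vim (-0.58) and Timp1 (-0.61), while the few UMIs of Col1a1, Col3a1, Lum and Dcn were seen in Idoxuridine alone. Whether these values bear on the ratios of other genes was not tested.

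Enzymes that handle pyrimidine nucleosides, the class of molecule to which the drug belongs, had a median of -0.20 over 21 genes in mitotic-rich cells, with 3 lower and 1 higher beside 5.66% and 13.4% of all genes. In mitotic-poor cells the median was -0.16, with 4 lower and 1 higher beside 3.85% and 12.6%. The lower ones were Uck2, a uridine-cytidine kinase (-0.91), Shmt1, which feeds folate to thymidylate synthesis (-0.85), and Upp1, a uridine phosphorylase (-0.82). For Uck2 and Shmt1 the ratio was smaller in size in mitotic-poor cells (-0.55 for both). Dctd, the dCMP deaminase, was higher (0.71). Thymidylate synthase, Tyms, stood at 164 CPM in Idoxuridine and 218 CPM in DMSO mitotic-rich cells (-0.41). None of 20 base excision repair genes reached 0.5 log2 with scaling to total UMIs (median 0.03, -0.11 in mitotic-poor cells). The lowest in mitotic-rich cells, at -0.44, would pass -0.5 with TMM.

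The spread between cells was measured at the fixed depth by the Fano factor, that is, the variance across cells divided by the mean, which is 1 where counting alone sets the spread. Over 7094 genes the median Fano factor in mitotic-rich cells was 1.12 in Idoxuridine and 1.07 in DMSO, and in mitotic-poor cells 1.17 in Idoxuridine and 1.09 in DMSO. The median log2 ratio of the Fano factors was 0.07 in mitotic-rich cells, with 68.8% of genes above 0, and 0.09 in mitotic-poor cells, with 75.1% above 0. A Fano factor at least 0.5 log2 higher in Idoxuridine was found for 138 genes (1.95%) in mitotic-rich cells and 304 (4.29%) in mitotic-poor cells. The mitotic-rich class holds fewer cells, 427 against 661, and the part of this in the lower count was not tested.

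Among genes within 0.5 log2 in level, Nr0b1, which encodes the orphan receptor Dax1, had the highest spread ratio. Its mean was 2.47 UMIs per cell in Idoxuridine and 3.14 in DMSO mitotic-rich cells, and its Fano factor was 6.12 in Idoxuridine and 1.79 in DMSO, a log2 ratio of 1.77 (1.08 in mitotic-poor cells). Leaving out the highest cell gave 1.55. Sat1, which starts the breakdown of polyamines, had Fano factors of 4.01 in Idoxuridine and 1.60 in DMSO (1.33, with 2.29 in mitotic-poor cells), the lipoprotein gene Apoe 15.4 in Idoxuridine and 6.41 in DMSO (1.26), and Cbx3, the heterochromatin protein HP1 gamma, 3.10 in Idoxuridine and 1.41 in DMSO (1.13). The ratios of Hcfc1r1 (1.75) and Atp6v0b (1.19) rested on 1 cell each, and were 0.19 and 0.42 without it. On the low side Slc25a17 (-0.79), Eny2 (-0.71) and Hoxc13 (-0.61) likewise became -0.04, 0.06 and -0.19, while Spint2, a protease inhibitor gene (-0.74), and Sgce, an imprinted sarcoglycan gene (-0.64), kept -0.71 and -0.53. Trpm1 stood at -0.67.

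Of 10 genes whose spread differed most over the whole libraries, all had a higher Fano factor in Idoxuridine within mitotic-rich cells as well, by less than in mitotic-poor cells for 9 of the 10. Their median log2 ratio was 0.87 in mitotic-rich and 1.57 in mitotic-poor cells. These genes were chosen on the same cells, and their direction is no independent evidence. The galectin gene Lgals3 had Fano factors of 1.62 in Idoxuridine and 1.38 in DMSO mitotic-rich cells (0.23), and 5.68 in Idoxuridine and 1.28 in DMSO mitotic-poor cells (2.15). Ckb, a creatine kinase gene, had 4.85 in Idoxuridine and 3.65 in DMSO mitotic-rich cells (0.41), and 16.2 in Idoxuridine and 4.81 in DMSO mitotic-poor cells (1.75). The imprinted gene Mest had 2.45 in Idoxuridine and 1.51 in DMSO mitotic-rich cells (0.70), and 7.01 in Idoxuridine and 1.65 in DMSO mitotic-poor cells (2.08). Nr0b1, Sat1, Apoe and Zfp42, which encodes Rex1, had a log2 ratio above 1 in both classes, with mitotic-rich Zfp42 at 4.71 in Idoxuridine and 2.20 in DMSO (1.10). On raw UMIs, without the fixed depth, the mitotic-poor ratios of Apoe (-0.00251) and Zfp42 (-0.28) turned sign.

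**Figure D5:**
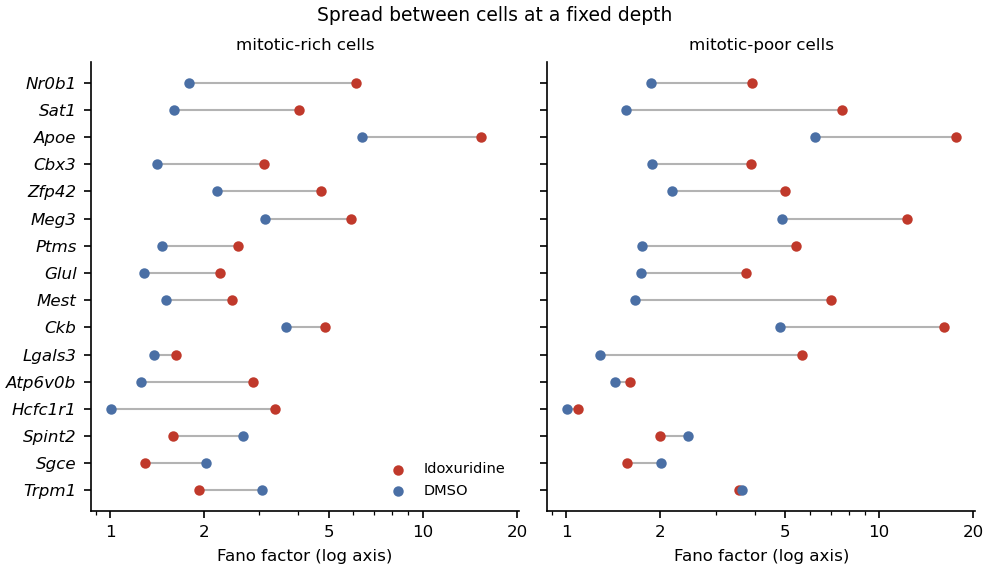
Fano factor at 23500 UMIs per cell (x axis, log scale) in the Idoxuridine library (red) and the DMSO library (blue) for 16 genes (rows), in mitotic-rich cells (left) and mitotic-poor cells (right). Lgals3, Ckb and Mest stand further apart between the libraries in mitotic-poor cells, Nr0b1 further apart in mitotic-rich cells, and Hcfc1r1 and Atp6v0b rest on 1 cell.

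For general pluripotency genes the median log2 Fano ratio was 0.39 in mitotic-rich cells, with 4 of 13 at least 0.5 log2 higher, and 0.48 in mitotic-poor cells, with 6 of 13. Nanog (0.66), Pou5f1 (0.61), Tdgf1 (0.72) and Utf1 (0.60) were the 4. Naive genes had a median of 0.35 in mitotic-rich cells, with 6 of 19 at least 0.5 log2 higher beside 1.95% of all genes, and of 0.57 in mitotic-poor cells, with 10 of 19 beside 4.29%.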

How the data were processed

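Per the labels' protocols, cells of each treatment were loaded for droplet capture (10x, 3′ V2 kit). Per the submitters' processing notes, Cell Ranger 2, Seurat and the mm10 build were used, in roles not given there. The deposited values are whole-number UMI counts for 27998 genes, not normalized by the authors, and all deposited barcodes were taken as cells. No doublet caller was run. Cells above the 95th percentile of UMIs were left out in an alternative.

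UMIs were summed per library and class and scaled to CPM, with exact Poisson intervals and exact conditional binomial intervals of ratios. The difference of 2 ratios has a large-count interval. Fano factors use the exact expectation of thinning to 23500 UMIs, where the expected mean reached 0.25 UMI in each of the 4 sets of cells. Computations used Python 3.11.15, numpy 2.4.6 and scipy 1.17.1, with TMM factors from edgeR 4.0.16 and size factors by the method of DESeq2 1.42.0, and were tested on simulated data. Coordinates come from GENCODE M21, which held 27645 of the gene identifiers.

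Genes were named by rule: the 8 of the share; the 10 highest and 10 lowest differences with intervals leaving out 0; the 8 highest and 8 lowest ratios in mitotic-rich cells; up to 4 members per list by size of ratio; and the 6 highest and 6 lowest Fano ratios at a like level. Other list members are given beside them to describe their list. The class, the 34 lists and the rules were chosen with earlier results of these data known. Cuts, genes of the share, depth, scaling, count minimum, fold and comparison cells were varied as alternatives, and the alternatives without the highest cell of each gene were chosen after seeing the data.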

Additional observations from a re-analysis of the deposited data

Results flagged for a closer look

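Genes were flagged where the ratio between Idoxuridine and DMSO had opposite signs in mitotic-rich and mitotic-poor cells. The counting intervals had to leave out 0 in both classes, and the 2 ratios had to differ by at least 0.5 log2. This held for 5 of the 8081 genes, and opposite signs with a smaller difference were not counted. With 1 library per treatment, the difference between the classes was not tested in any of them. Add3, an adducin of the membrane skeleton, had a log2 ratio of -0.27 in mitotic-rich and 0.32 in mitotic-poor cells, a difference of -0.59. Vat1 had -0.38 in mitotic-rich and 0.14 in mitotic-poor cells, a difference of -0.52. Igfbp2, an insulin-like growth factor binding protein, had 0.27 in mitotic-rich and -0.24 in mitotic-poor cells, a difference of 0.51. Hist1h1b, a linker histone gene made in S phase, stood at 47.3 CPM in Idoxuridine and 36.9 CPM in DMSO mitotic-rich cells (0.36), and at 118 CPM in Idoxuridine and 136 CPM in DMSO mitotic-poor cells (-0.21), a difference of 0.57. Myh13 had 0.47 in mitotic-rich and -0.47 in mitotic-poor cells, a difference of 0.95, from 147 UMIs in Idoxuridine and 95 in DMSO mitotic-rich cells. With TMM scaling, which moves ratios by -0.17 in mitotic-rich and -0.18 in mitotic-poor cells, the mitotic-poor ratio of Vat1 would fall below 0 like its mitotic-rich one, and in Add3, Igfbp2, Hist1h1b and Myh13 the interval of the ratio above 0 would take in 0, so none of the 5 would meet this criterion.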

How the results depend on the processing

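No paired analysis was possible because each treatment has 1 library. The 1086 higher and 457 lower genes of mitotic-rich cells were 674 and 1026 with TMM and 675 and 1024 with median-of-ratios scaling, and the 1021 higher and 311 lower genes of mitotic-poor cells were 590 and 872 with TMM and 597 and 837 with median-of-ratios scaling. With a minimum of 1000 UMIs they were 207 and 196 in mitotic-rich and 169 and 149 in mitotic-poor cells, and with 1 log2 counted 300 and 52 in mitotic-rich and 257 and 26 in mitotic-poor cells. With a minimum of 50 UMIs the higher genes were 2295 in mitotic-rich and 2165 in mitotic-poor cells. The cut at the 90th percentile gave 598 in mitotic-rich and 560 in mitotic-poor cells, with fewer genes reaching the count minimum. The 154 higher and 111 lower differences between the classes were 626 and 430 at 50 UMIs, 12 and 7 at 1000 UMIs and 22 and 2 at 1 log2, and against cells between the classes 90 were higher. The share of mitotic-rich Idoxuridine cells was 20.7% at the 90th and 47.4% at the 60th percentile, and 25% with each library cut at its own. On raw UMIs the median log2 Fano ratio of mitotic-poor cells was -0.023, and those of Apoe (-0.00251), Fn1 (-0.11), Hmgb1 (-0.45), Mybl2 (-0.26), Sox2 (-0.46) and Zfp42 (-0.28) turned. The Fano ratio of mt-Nd2 in mitotic-poor cells turned to 0.25 without cells over 5% mitochondrial UMIs and to 0.14 without its highest cell, that of Eny2 in mitotic-rich cells to 0.062 without its highest cell, and that of Serpinh1 there to -0.031 at the 90th percentile. Against the cells between the classes the differences of Foxd3 (0.020), Ier3 (0.30), Krt19 (-1.06) and Ndrg1 (0.069) turned. Where no construction is named, the cause was not tested. Of 189 values of the main counts, medians and share under 27 alternatives, 158 kept within their limits and 31 moved. Changes of sign were counted for ratios of at least 0.5 log2: none of the 159 named genes had one in mitotic-rich cells under 15 alternatives (2385 values, of which 253 moved). Smaller ratios can change sign, as those between 0 and 0.17 do with TMM. The Fano alternative with no depth minimum was not run. With 1 library per treatment, counting intervals limit only what depth can show, not what cultures vary by.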

Other observations

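Over the mitotic lists the log2 Fano ratio between Idoxuridine and DMSO was small in both classes. Both classes were chosen by the mitotic share, which limits the spread of genes that go with it, and its part in these ratios was not tested. Its median was 0.024 in mitotic-rich and 0.13 in mitotic-poor cells for kinetochore and centromere genes, 0.050 and 0.18 for the passenger complex and centromere cohesion, 0.016 and 0.091 for cytokinesis, and 0.11 and 0.055 for kinesins and spindle assembly. Top2a, Cdk1 and Cenpa had a higher ratio in mitotic-rich than in mitotic-poor cells, and were chosen after their values were seen. Top2a had a mean of 15.6 UMIs per cell in Idoxuridine and 16.1 in DMSO mitotic-rich cells, and Fano factors of 2.54 in Idoxuridine and 1.76 in DMSO, a log2 ratio of 0.53, against -0.04 in mitotic-poor cells. Cdk1 had Fano factors of 2.51 in Idoxuridine and 1.78 in DMSO (0.50, with 0.09 in mitotic-poor cells), and the centromeric histone gene Cenpa 2.10 in Idoxuridine and 1.31 in DMSO (0.68, with 0.22). The mitotic share itself reached higher in Idoxuridine, and its part in these values was not tested.

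Among replication-dependent histone genes, whose transcripts mostly lack a poly(A) tail and are made in S phase, 4 of 33 were measured. In mitotic-rich cells 2 of the 4 lay higher, beside 13.4% of all genes, and 2 within 0.5 log2, with the lowest ratio at -0.33. In mitotic-poor cells all 4 lay within 0.5 log2, between -0.44 and 0.43. The 2 higher ones are given here. Hist1h1e stood at 23.3 CPM in Idoxuridine and 12.8 CPM in DMSO mitotic-rich cells (0.87, with 0.43 in mitotic-poor cells), and Hist1h2ap at 42.0 CPM in Idoxuridine and 28.7 CPM in DMSO (0.55, with 0.33). These genes have close copies, and their counts are uncertain. The imprinted gene Peg3 stood at 45.5 CPM in Idoxuridine and 13.4 CPM in DMSO mitotic-rich cells (1.77), and at 31.9 CPM in Idoxuridine and 21.6 CPM in DMSO mitotic-poor cells (0.56), a difference of 1.21 (0.87 to 1.55). Of 15 imprinted genes, 7 lay higher in mitotic-rich cells and none lower (median 0.44, 0.45 in mitotic-poor cells), beside 13.4% higher and 5.66% lower over all genes. The germ cell gene Dazl stood at 97.8 CPM in Idoxuridine and 7.88 CPM in DMSO mitotic-rich cells (3.63), close to its ratio of 3.77 in mitotic-poor cells. It had the highest ratio of 5 measured germline genes known to be silenced by DNA methylation. Of these 4 lay higher and none lower in mitotic-rich cells, beside 13.4% and 5.66%, and the lowest ratio was -0.485. The whole list of 22 genes summed to 988 CPM in Idoxuridine and 992 CPM in DMSO mitotic-rich cells.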
